A study of Catharanthus roseus with 3 samples.

Results

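Leaf and root of Catharanthus roseus were compared transcript by transcript. The plant, known as Madagascar periwinkle, makes terpenoid indole alkaloids (TIAs). The leaf library and the root library are 2 of the 3 libraries of the series. Both came from mature plants of the variety Prabal grown in the field, with no treatment named, and each organ is 1 library of total RNA. How many plants entered a library, and their age beyond maturity, are not given in the sources used here. All 59220 assembled transcripts are listed for both organs, and a transcript was compared where the larger of its leaf and root values was at least 10 RPKM (read density over the length of a transcript, relative to the mapped reads of the library). This left 12517 transcripts (21.1%), of which 6066 reached 10 RPKM in both organs, 3862 in leaf alone and 2589 in root alone. The size of a difference is log2((leaf + 1)/(root + 1)), positive where leaf is higher, and "higher" below means at least 2-fold on this scale, a log2 value of 1 or more. With 1 library per organ there is no spread between replicates, so no test was made and each difference is one between 2 libraries.

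TIAs are built from 2 supplies. Plastids provide 5-carbon units through the MEP pathway, from which the iridoid branch makes geraniol, then loganin and secologanin, while the indole branch turns tryptophan into tryptamine. Strictosidine synthase joins secologanin and tryptamine to strictosidine, and a glucosidase opens it into the reactive aglycone from which the alkaloid classes diverge. One of these routes leads through tabersonine to vindoline, a partner in the anticancer bisindole vinblastine that is known from green aerial organs, whereas roots are known for ajmalicine and serpentine and for other derivatives of tabersonine.

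The summed values were 452743 RPKM in leaf and 471970 in root, and a value above 0 was listed for 44675 and 48814 transcripts. The values carry 2 decimals and no transcript lengths, so the number of reads behind one of them is unknown. The most that can be read from them is a step. In leaf 528 transcripts are listed at 0.05 RPKM and 352 at 0.06, and in root 528 at 0.06 and 334 at 0.07. If such a drop marks 1 read on the shortest transcripts, 10 RPKM stands for at least 167 reads in leaf and 143 in root. The labels of the organs could not be checked on general markers of leaf or root tissue, since the files pair no gene names with transcripts. Of the alkaloid genes named by the study, T16H and DAT, known from leaf, had 7.01 and 6.85 RPKM in leaf against 0.04 and 0.37 in root, and T19H, known from root, had 0.01 in leaf and 8.96 in root. The study had singled out these genes for their difference between leaf and root, so they are no independent check of the labels. In whole organs, fewer cells of a type and less RNA per cell cannot be told apart.

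More than 50% of the compared transcripts differed at least 2-fold between the organs. Leaf was higher for 3724 of the 12517 (29.8%) and root for 3104 (24.8%), together 6828 (54.5%), and 5689 lay within 2-fold. The log2 values had a median of 0.26 and quartiles at -0.98 and 1.22, with 5% of transcripts below -3.87 and 5% above 3.71. At 4-fold the organs stood nearly even, with 2019 transcripts higher in leaf (16.1%) and 1984 in root (15.9%), 32% of those compared. At 8-fold 1057 were higher in leaf and 1207 in root. At 32-fold 216 were higher in leaf (1.73%) and 203 in root (1.62%), 3.35% in all, and at 64-fold 84 and 56. The minimum enters these counts, because a transcript that reaches 10 RPKM in a single organ is likely to differ. Among the 6066 transcripts at 10 RPKM or more in both organs, 748 were higher in leaf and 905 in root, 27.3% in all. The threshold itself cut through a dense range. The values nearest to it were 10 and 9.99 RPKM, 708 transcripts lay from 9 to 10 RPKM and 708 from 10 to 11, and 424 compared transcripts lay within 0.1 past the 2-fold line against 407 within 0.1 short of it.

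Which organ held more of the differing transcripts depended on how the libraries were scaled. As deposited, 54.5% of them were higher in leaf. With equal totals the share was 56.9%, but with equal upper quartiles it was 45.2% and with a median ratio of 1 between the libraries 42.9%, so that root held more under both of these. The scalings moved the log2 values by 0.06, -0.25 and -0.32, respectively, and brought the median of the compared transcripts from 0.26 to 0.34, -0.07 and -0.15.

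By the level a transcript reached in its stronger organ, the balance between leaf and root changed, under every scaling used. Transcripts were put into 6 classes by the larger of the 2 values. From 10 to 20 RPKM, 4945 transcripts had a median log2 value of 0.37, and 1419 (28.7%) were higher in leaf against 1001 (20.2%) in root. From 20 to 50 RPKM the median was 0.30 over 4739 transcripts, with 1417 higher in leaf and 1013 in root. As deposited, these low classes leaned towards leaf. With equal upper quartiles more transcripts were higher in root in both classes, 1130 against 1077 in leaf and 1201 against 1156. With a median ratio of 1 root was also ahead, with 1158 against 1024 and 1275 against 1097. From 50 to 100 RPKM the organs were close as deposited, with 525 of 1695 higher in leaf, 555 in root and a median of -0.03. Above that, root led. From 100 to 200 RPKM, 229 of 693 were higher in leaf and 293 in root, and the median was -0.28. From 200 to 500 RPKM, 102 of 356 (28.7%) were higher in leaf and 191 (53.7%) in root, and the median was -1.42. At 500 RPKM and over, 32 of 89 were higher in leaf and 51 (57.3%) in root, with a median of -2.46.

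**Figure D1:**
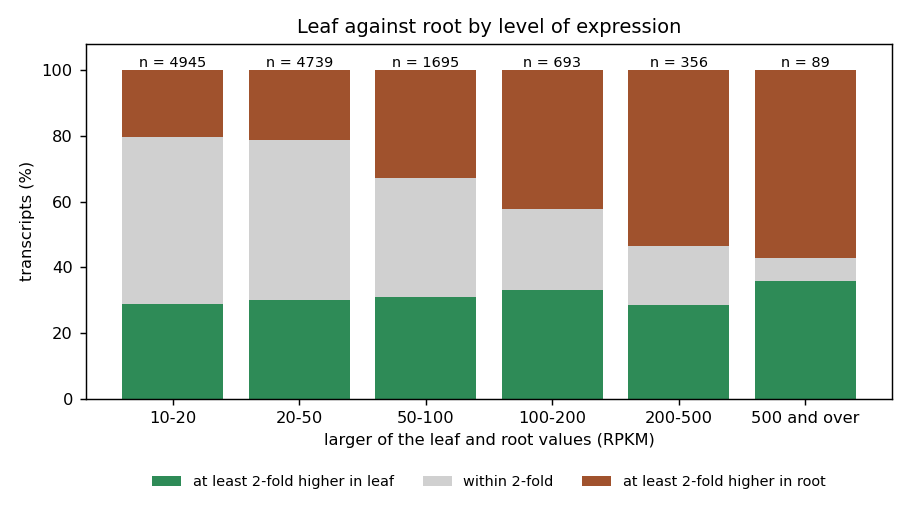
Percent of compared transcripts (vertical axis) that were at least 2-fold higher in leaf (green), within 2-fold (grey) or at least 2-fold higher in root (brown), by the larger of the 2 values in RPKM, with the number of transcripts above each bar. The green part stays between 28.7% and 33.04% in the 5 classes below 500 RPKM and is 35.96% in the highest. The brown part grows from 20.2% to 57.3% and the grey part shrinks from 51.1% to 6.74%.

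The share of transcripts higher in leaf thus stayed between 28.7% and 33.04% in the 5 classes below 500 RPKM and was 35.96% in the highest. The share higher in root was 20.2% in the lowest class and 57.3% in the highest. The growth on the root side came at the cost of transcripts within 2-fold, which were 51.1% of the lowest class and 6.74% of the highest, 6 transcripts of 89. A strongly expressed transcript can also differ by more than a weak one, and the median size of the difference without its sign rose from 0.97 to 4.28. By the mean of both organs in place of the larger value, the median ran from 0.35 at 10 to 20 RPKM to -1.33 at 500 RPKM and over, the latter over 30 transcripts. Both of these groupings let a high value in 1 organ set the class. By the smaller of the values, which takes only transcripts strong in both organs into the upper classes, the change of the median was nearly absent. The median was then 0.16 over 3205 transcripts from 10 to 20 RPKM, -0.14 over 147 from 100 to 200 RPKM and 0.066 over 44 at 200 RPKM and over, of which 25 were larger in leaf and 19 in root. The counts past 2-fold did shift in these classes, from 513 higher in leaf and 495 in root at 10 to 20 RPKM to 175 and 301 at 20 to 50. They were 47 and 77 from 50 to 100 RPKM, 9 and 25 from 100 to 200, and 4 and 7 above. The median thus changed with level among transcripts strong in 1 organ, and hardly among those strong in both. By the larger value, the median of the highest class minus that of the lowest was -2.82 as deposited, and between -3.005 and -2.71 under the other scalings. Under each of these the median was above 0 in the lowest class and below 0 from 100 RPKM up, as the plot of medians by scaling shows. Root also held more strong transcripts outright: 732 reached 100 RPKM in root and 597 in leaf, 298 and 191 reached 200 RPKM, and 54 and 38 reached 500 RPKM. At 1000 RPKM the counts were 11 in root and 10 in leaf.

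**Figure D2:**
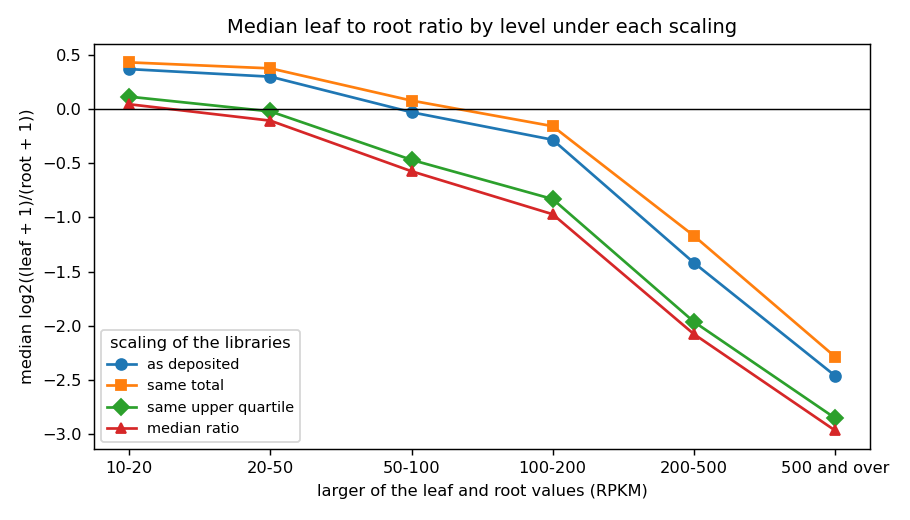
Median log2((leaf + 1)/(root + 1)) (vertical axis) by class of the larger value in RPKM, with 1 line for the values as deposited and 1 for each scaling of the libraries. All 4 lines fall from left to right, from between 0.04 and 0.43 in the lowest class to between -2.96 and -2.28 in the highest.

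The strongest transcripts of leaf and of root were different ones. Of the 10 highest in each organ, none was shared, of the 100 highest 7 were, and of the 1000 highest 325. The 10 highest of leaf had a median of 1635 RPKM there and 9.03 in root, and all 10 were higher in leaf. Those of root had a median of 1379 RPKM there and 119 in leaf, and all 10 were higher in root. All 10 of root reached 10 RPKM in leaf, whereas 5 of the 10 of leaf reached it in root. The 100 highest of leaf held 12.7% of the summed RPKM of leaf and 2.14% of that of root. The 100 highest of root held 13.3% of root and 2.27% of leaf. All transcripts higher in leaf together held 42.8% of the sum in leaf and 6.24% in root. Those higher in root held 47.7% of the sum in root and 7.38% in leaf. Both sets were picked by the difference itself, so the larger share in the organ named follows from the choice. The lists of highest transcripts were picked by level in the organ named, which also favours higher values and a larger share there.

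Among the 1138 transcripts that reached 100 RPKM in an organ, Cr_TC41427 had the largest difference towards leaf, with 1020 RPKM in leaf, rank 10 there, and 0.84 in root, a log2 value of 9.12. Cr_TC58107 followed with 682 RPKM in leaf and 0.82 in root (8.55). On the root side Cr_TC05510 had 1.44 RPKM in leaf and 910 in root, rank 16 there, a log2 value of -8.54, and Cr_TC37372 stood at 1.09 RPKM in leaf against 685 in root (-8.36). The highest transcript of leaf stood at 2739 RPKM in leaf and 163 in root, and that of root at 2186 in root and 53.2 in leaf. No source used here says what these transcripts encode.

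Transcripts at or near 0 in one organ were more often root transcripts. Of the transcripts with at least 10 RPKM in root, 129 were listed at 0 in leaf, 250 were under 0.1 RPKM and 639 under 1 RPKM. A stretch of identifiers described below holds 64 of the 129 and 75 of the 250, which leaves 65 and 175 elsewhere. Of those with at least 10 RPKM in leaf, 16 were listed at 0 in root, 95 were under 0.1 and 484 under 1. With a lower bar, at least 1 RPKM in one organ and under 0.1 in the other, 5361 transcripts were found on the root side and 1205 on the leaf side. Those on the root side were unevenly placed along the identifiers, which run from Cr_TC00001 to Cr_TC59220. In 4 neighbouring blocks of 1000 identifiers, from 52001 to 56000, the median was 0 RPKM in leaf and at least 1 in root. In these 4000 transcripts 3394 (84.9%) reached 1 RPKM in root while staying below 0.1 in leaf, against 3.56% of the other 55220, and 3 were the other way round.

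**Figure D3:**
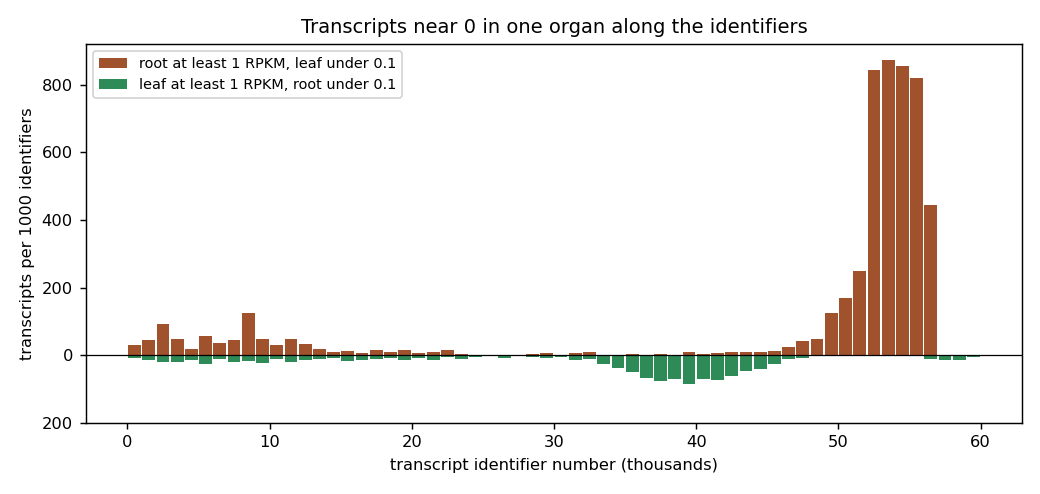
Number of transcripts per block of 1000 identifiers (vertical axis) that reached 1 RPKM in root but not 0.1 in leaf (brown, upwards) or the reverse (green, downwards), along the identifier number. The brown bars stand between 820 and 873 in the 4 blocks from 52001 to 56000, and the green bars reach at most 84 in any block.

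This stretch was chosen after its values were seen, and the order of the identifiers is not explained in the sources used here. The leaf median fell block by block from 9.5 RPKM in the block from 33001 to 0.02 in that from 50001. It was 0 in the block from 51001. The root median fell at first as well, from 5.82 RPKM in the block from 33001 to 0.405 in that from 42001. It was 0.74 in the block from 51001. Blocks beside the stretch, from 50001, 51001 and 56001, held 169, 249 and 445 transcripts at 1 RPKM or more in root and below 0.1 in leaf. Transcripts of the stretch were weak in root, with a median of 1.77 RPKM, and 3388 of them were listed at 0 in leaf against 2 in root. They held 5.30% of the summed RPKM of root and 2.74% of that of leaf. Because most lay below the minimum, 377 of them were compared, of which 136 were higher in root and 103 in leaf. Without the stretch 3621 transcripts were higher in leaf and 2968 in root, and the median of the highest class of level minus that of the lowest was -2.44. With no minimum value, on the other hand, the stretch moved the balance. Leaf was then higher for 7779 transcripts and root for 10275 over all identifiers, but for 7660 and 6754 without the stretch.

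The steps of TIA synthesis fell to one organ or the other, and the change of organ came within branches as well as between them. The study pairs 30 pathway genes with transcripts. Of these, 17 were higher in leaf, 9 in root and 4 lay within 2-fold, with no minimum value asked. Among all 51123 transcripts above 0 in either organ, 15.2% were higher in leaf and 20.1% in root by the same rule, 35.3% in all. A total of 24 of the 30 reached 10 RPKM in leaf or root, and 15 of them were higher in leaf and 7 in root, where 29.8% and 24.8% of all compared transcripts were. DXS2, 10HGO, STR3, T16H, DAT and T19H stayed under 10 RPKM in both. The study had picked 10 of the 30 for RT-PCR because they differed between root and leaf, so their counts are set by that choice. Of the other 20 genes 12 were higher in leaf, 4 in root and 4 within 2-fold. The median log2 value of the 30 was 1.40. Over the 24 that reached 10 RPKM it was 1.45, beside 0.26 over all compared transcripts. Scaling changed the call of 1 gene of the 30, STR1.

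**Figure D4:**
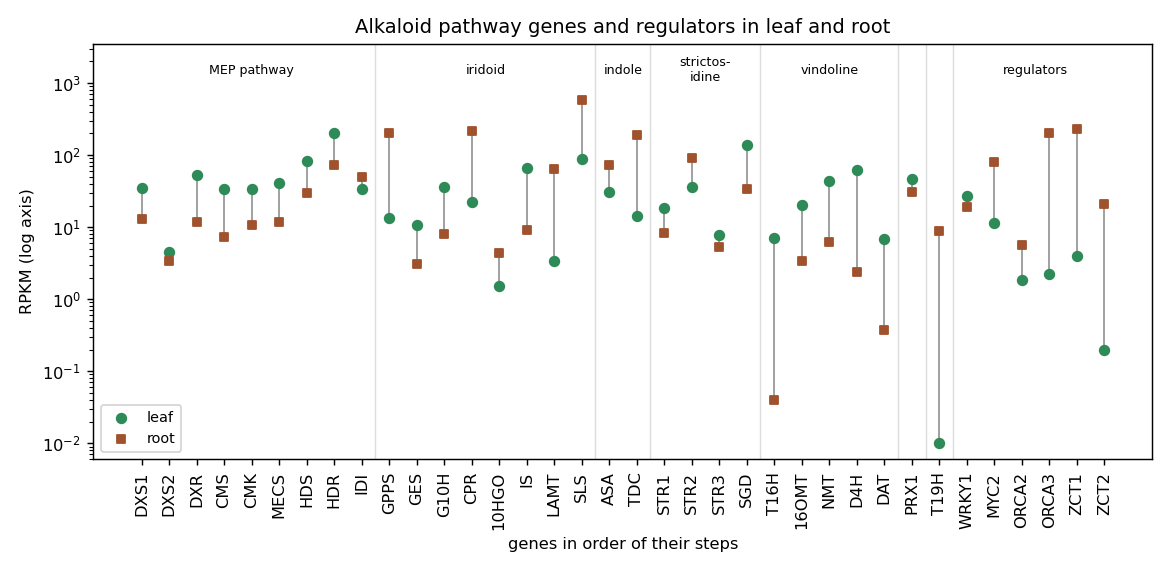
RPKM on a log axis (vertical) of the 30 pathway genes and 6 regulators in leaf (green circles) and root (brown squares), 1 library each, in the order of their steps; PRX1 and T19H stand between the vindoline branch and the regulators, and a grey line joins the 2 values of a gene. Green lies above brown for the MEP pathway except IDI and for the whole vindoline branch, while the order changes from gene to gene in the iridoid branch and brown lies above green for the regulators except WRKY1.

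The MEP pathway stood higher in leaf along nearly its whole length. DXS1 and DXS2 are forms of its entry enzyme. DXS1 (Cr_TC38811) had 35.1 RPKM in leaf and 13.1 in root, a log2 value of 1.35, and DXS2 (Cr_TC36177) had 4.51 and 3.36, which is within 2-fold. DXR (Cr_TC57326), which makes methylerythritol phosphate, had 52.6 RPKM in leaf and 11.7 in root. CMS (Cr_TC04791), the next enzyme, had 33.6 in leaf and 7.41 in root. These had the largest ratios of the pathway, 4.48 and 4.54. The kinase CMK (Cr_TC34633) stood at 33.6 RPKM in leaf and 10.6 in root and the cyclising enzyme MECS (Cr_TC12522) at 40.5 and 11.98, which gave log2 values of 1.58 and 1.68. HDS (Cr_TC56942), the last but one enzyme, had 82.3 RPKM in leaf and 29.7 in root, and HDR (Cr_TC43359), the last, had 206 and 73.9. The ratios of these were 2.77 and 2.79, close to each other and to the 2.67 of DXS1. The last enzyme was also the strongest in both organs, and exceeded CMS 6.13-fold in leaf and 9.97-fold in root.

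The exception was IDI (Cr_TC33226), which interconverts the C5 units made by HDR and also serves the cytosolic route to them. It had 33.6 RPKM in leaf and 49.4 in root, a log2 value of -0.54, and was below 0 under every scaling and pseudocount used. The 9 genes summed to 521.98 RPKM in leaf and 211 in root, so that leaf held 71.2% of their sum over both organs. Their log2 values ran from -0.54 to 2.07 with a median of 1.47. Among transcripts of like strength, HDR lay above 73.3% of the 356 transcripts of its level class and DXR above 78.8% of the 1695 of its own.

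In the iridoid branch each organ had the higher value at different steps. GPPS (Cr_TC33950), the small subunit of the synthase that joins the C5 units to geranyl diphosphate, had 13.5 RPKM in leaf and 205 in root, 15.2-fold more in root. The next enzyme, geraniol synthase GES (Cr_TC54663), turned the other way with 10.7 RPKM in leaf and 3.13 in root. GPPS and GES were thus close in leaf, at a ratio of 1.26, while in root GPPS exceeded GES 65.6-fold. Among the pathway genes, GES alone lies in the stretch of identifiers described above, where 84.7% of transcripts were listed at 0 in leaf. G10H (Cr_TC57680), the P450 enzyme that hydroxylates geraniol, followed GES with 35.8 RPKM in leaf and 8.14 in root. The oxidoreductase 10HGO (Cr_TC01194) was weak in both, at 1.54 RPKM in leaf and 4.34 in root, and iridoid synthase IS (Cr_TC07184), which closes the iridoid ring, had 65.9 in leaf and 9.06 in root. GES, G10H and IS were higher in leaf, with log2 values of up to 2.73, that of IS.

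The end of the branch stood higher in root. LAMT (Cr_TC02224), which methylates loganate to loganin, had 3.37 RPKM in leaf and 64.1 in root, 19.03-fold more in root. SLS (Cr_TC01142), the P450 enzyme that opens loganin to secologanin, had 87.9 RPKM in leaf and 577 in root. IS exceeded LAMT 19.5-fold in leaf, whereas LAMT exceeded IS 7.08-fold in root. SLS was the first of the 30 genes in root and the third in leaf, where it stood close to IS, at a ratio of 1.33. In root that ratio was 63.7. The log2 value of SLS, -2.70, lay above 11.3% of all compared transcripts, but it was near the middle of the 89 transcripts of 500 RPKM and over, above 46.1% of them. LAMT, by contrast, lay above 7.49% of its class of 50 to 100 RPKM.

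CPR (Cr_TC07063), the reductase that passes electrons to P450 enzymes of the pathway and of many others, had 22.7 RPKM in leaf and 214 in root. It was the second of the 30 genes in root. The P450 enzymes themselves did not share its order, since SLS and T19H were higher in root and G10H and T16H in leaf. In leaf CPR stood below G10H, which exceeded it 1.58-fold, and in root it exceeded G10H 26.3-fold. Over the 8 genes counted with the iridoid branch, leaf held 241 RPKM and root 1085, of which SLS alone was 577. Without the minimum 3 of the 8 were higher in leaf and 5 in root, and none lay within 2-fold. With a pseudocount of 10, which holds back weak transcripts, GES and 10HGO no longer reached 2-fold.

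The indole branch was higher in root at both of its steps. ASA (Cr_TC39398), the alpha subunit of the enzyme that commits chorismate to tryptophan, had 31.2 RPKM in leaf and 73.2 in root, a log2 value of -1.20. TDC (Cr_TC33880), which decarboxylates tryptophan to tryptamine, had 14.5 RPKM in leaf and 191 in root, 13.2-fold more in root. The order of both steps therefore changed between the organs. ASA exceeded TDC 2.15-fold in leaf and TDC exceeded ASA 2.61-fold in root. The sum of both was 45.7 RPKM in leaf and 264 in root.

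At strictosidine the 3 synthases did not share an organ. STR1 (Cr_TC04185) had 18.4 RPKM in leaf and 8.31 in root, a log2 value of 1.06, which fell short of 2-fold under equal upper quartiles (0.82) and under the median ratio scaling (0.76). STR2 (Cr_TC05794) had 36.3 RPKM in leaf and 90.8 in root (-1.30), and STR3 (Cr_TC10520) had 7.83 and 5.29, within 2-fold. STR2 led in both organs, exceeding STR1 1.97-fold in leaf and 10.9-fold in root. Summed over the synthases, leaf had 62.5 RPKM and root 104. The next enzyme was the reverse. SGD (Cr_TC57924), which removes the glucose of strictosidine, had 140 RPKM in leaf, second to HDR among the 30 genes, and 33.8 in root, a log2 value of 2.02. SGD exceeded STR2 3.85-fold in leaf, while STR2 exceeded SGD 2.69-fold in root. Whether these transcripts share reads with close copies of each other was not tested.

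All 5 genes of the vindoline branch were higher in leaf. T16H (Cr_TC35206), the P450 enzyme that takes tabersonine into the branch, had 7.01 RPKM in leaf and 0.04 in root. 16OMT (Cr_TC58091), the O-methyltransferase that follows, had 20.2 RPKM in leaf and 3.44 in root, 5.88-fold more in leaf. NMT (Cr_TC06574), an N-methyltransferase, had 43.3 and 6.29, 6.89-fold more. The leaf values rose with each of these steps.

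D4H (Cr_TC51001), a hydroxylase near the end, went on with 63.2 RPKM in leaf and 2.39 in root. Its log2 value of 4.24 was the highest of the 30 genes with a pseudocount of 1, whereas T16H had the highest with 0.1 (5.67, beside 4.67 for D4H). At 4.24 it lay above 96.8% of all compared transcripts, and 398 had a larger value. DAT (Cr_TC35622), the acetyltransferase that makes vindoline, had 6.85 RPKM in leaf and 0.37 in root. It stood 9.22-fold below D4H in leaf and 6.46-fold below it in root. The 5 genes summed to 141 RPKM in leaf and 12.5 in root, so leaf held 91.8%, the largest share of any branch. T16H and DAT were under 10 RPKM in both organs, and with a pseudocount of 10 their log2 values were 0.76 and 0.70.

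T19H (Cr_TC04217), a P450 enzyme that hydroxylates tabersonine at another position, stood opposite to T16H. It was listed at 0.01 RPKM in leaf, the smallest step of the values, and at 8.96 in root. In leaf T16H exceeded T19H 701-fold and in root T19H exceeded T16H 224-fold, but both ratios have a value under 0.1 RPKM below the line and are rough. PRX1 (Cr_TC57083), the peroxidase placed at the coupling of vindoline and catharanthine, had 46.1 RPKM in leaf and 30.8 in root, a log2 value of 0.57 and thus within 2-fold under every scaling. In root PRX1 thus kept a value near that of leaf, while the vindoline genes were at 6.29 RPKM or less there.

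**Figure D5:**
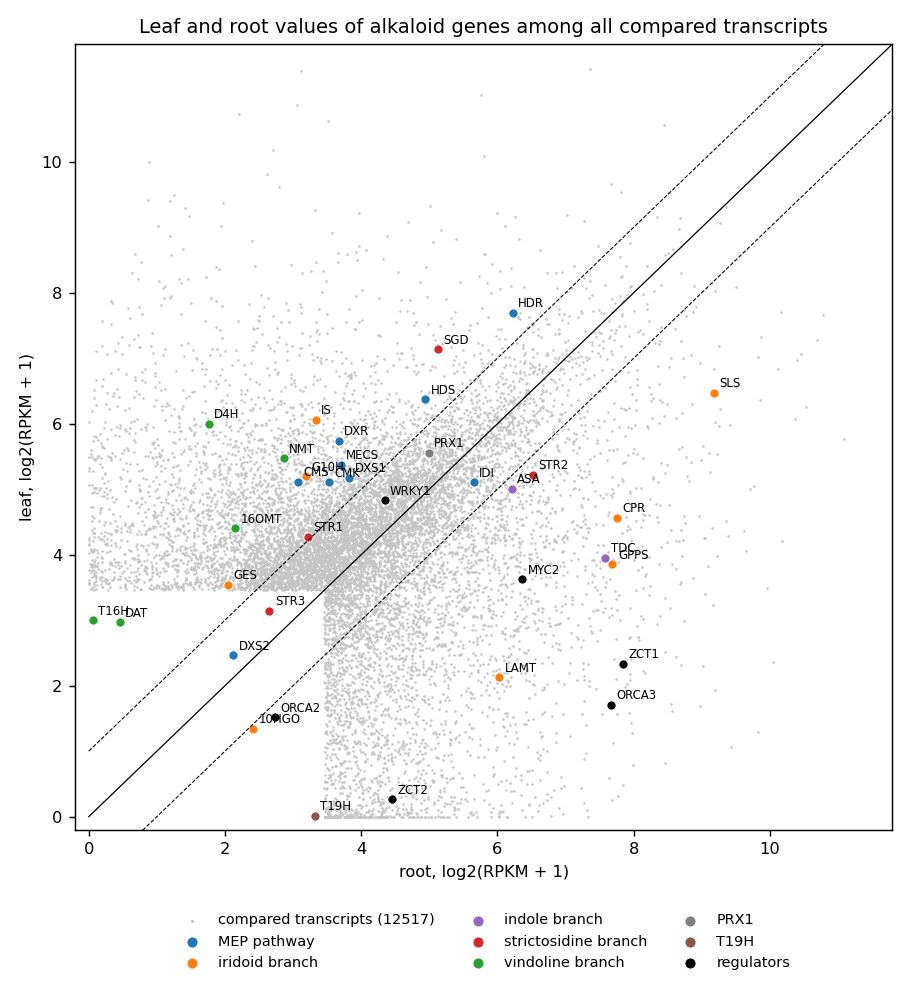
Leaf against root values, both as log2(RPKM + 1), of the 12517 compared transcripts (grey points) and of the 30 pathway genes and 6 regulators (coloured by branch and named), with a solid line of equality and dashed lines at 2-fold. The missing corner at the lower left is the minimum of 10 RPKM; named genes inside it, such as T16H and T19H, were not among the compared. The vindoline genes lie above the upper dashed line and ORCA3 and ZCT1 far below the lower one.

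The order of the genes by level also differed between the organs. The first 5 in leaf were HDR, SGD, SLS, HDS and IS, and in root SLS, CPR, GPPS, TDC and STR2, with 1 gene in common. Among the first 10 of each organ 3 were shared. The pathway genes that reached 10 RPKM in an organ ran from 3.37 to 206 RPKM in leaf, a 61.2-fold range, and from 2.39 to 577 RPKM in root, a 241-fold range.

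Of the 6 regulators of the pathway 5 were higher in root and none in leaf, where 20.1% and 15.2% of all transcripts above 0 were. ORCA2 stayed under 10 RPKM in both organs, and of the 5 that were compared 4 were higher in root, beside 24.8% of all compared transcripts. The median log2 value was -3.47 over the 6 regulators. Over the 5 compared it was -4.20, beside 0.26 over all compared transcripts. ORCA3 (Cr_TC05195), an AP2-domain activator of TIA genes that responds to jasmonate, had 2.27 RPKM in leaf and 202 in root, 88.8-fold more. Its log2 value of -5.95 was higher than that of 63 of the 12517 compared transcripts, and of 4.21% of its level class. ORCA2 (Cr_TC02334), a related activator, stayed weak at 1.87 RPKM in leaf and 5.68 in root. MYC2 (Cr_TC31408), the bHLH factor that acts above the ORCA genes, had 11.3 RPKM in leaf and 81.2 in root, 7.18-fold more. The activators thus stood higher in root.

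The repressors did so as well. ZCT1 (Cr_TC38533), a zinc finger repressor of TIA genes, had 4.04 RPKM in leaf and 229 in root, 56.7-fold more, and ZCT2 (Cr_TC12396) had 0.2 and 20.99, 105-fold more. ZCT1 exceeded ORCA3 1.78-fold in leaf and 1.14-fold in root. WRKY1 (Cr_TC35814) was the exception among the 6, with 27.5 RPKM in leaf and 19.3 in root, a log2 value of 0.49. It was the strongest regulator in leaf and the fifth of 6 in root. Both organs were within 2-fold for it under every scaling.

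The actin transcript that served as internal control of the RT-PCR (Cr_TC35401) had 1.17 RPKM in leaf and 70.7 in root. Its log2 value of -5.05 was above that of 1.52% of the compared transcripts, and between -5.29 and -5.0 under the other scalings. Other actin transcripts were not identified here. The values above are RPKM and not ratios to actin.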

How the data were processed

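The authors sequenced total RNA of leaf, root and flower as 1 library each on the Illumina platform. They filtered the reads, mapped them with CLC Genomics Workbench onto a merged de novo assembly and took uniquely mapped reads. Their mapping counts are for the reads left after duplicate reads were removed. What this removal does to the values of strong transcripts was not tested. The header of the deposited column says base mean, but the authors' methods give RPKM, and the sums and decimals of the values allow it, so RPKM was assumed. DESeq, named in the submitters' processing notes, was used by the authors for differential expression. No count test was possible on values without lengths, and 1 library per organ allows none. The flower library was not used. RPKM depends on the other transcripts of a library, so alternatives scaled both libraries to the same total, to the same upper quartile of transcripts above 0 in either, or by the median ratio. Others were pseudocounts of 0.1 and 10, no minimum, a minimum of 50 RPKM and 4-fold. Leaving out a stretch of identifiers, asking 10 RPKM in both organs, and the alternatives of the drop across level classes were added after seeing the data.

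Members and lists were chosen with earlier results of these data known. Named were every transcript that the study pairs with a gene name and, by identifier, the 2 largest differences each way among transcripts reaching 100 RPKM, with the strongest transcript of each organ. The identifiers of some genes were read from the labels of a pathway drawing and a heat map. Of the 59220 identifiers 0 were found in the RefSeq gene table for the species, and neither sequences nor coordinates are given. The code was tested on simulated data. The software was numpy 2.4.6 and pandas 2.3.3 in Python 3.11.15, with plots from matplotlib 3.10.9.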

Additional observations from a re-analysis of the deposited data

How the results depend on the processing

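The scalings changed the counts of all transcripts more than the counts of pathway genes. A pseudocount of 10 and the 4-fold bar lowered both. Transcripts higher in leaf numbered 2255 with a pseudocount of 10, where those higher in root numbered 2294, and 7779 and 10275 with no minimum. With a minimum of 50 RPKM they were 888 and 1090, at 4-fold 2019 and 1984, and with 10 RPKM in both organs 748 and 905. Under the 3 scalings both counts stayed within 1.5 times of those as deposited, from 2808 to 3915 for leaf and from 2971 to 3736 for root. The median log2 value, 0.26 as deposited, turned below 0 under equal upper quartiles (-0.072), under the median ratio scaling (-0.15) and at a minimum of 50 RPKM (-0.18). It was 0.34 with the same total, 0.27 with a pseudocount of 0.1, 0.18 with 10, 0.041 with no minimum, 0.27 without the stretch of identifiers and 0.084 with 10 RPKM in both organs.

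The highest class of level minus the lowest was -2.86 with a pseudocount of 0.1, -2.63 with 10, -2.71 with the same total, -2.96 with the same upper quartile, -3.005 by the median ratio and -2.44 without the stretch. The highest class minus that of 10 to 20 RPKM was -1.68 with classes by the mean of both organs and -0.095 by the smaller value. Classes below 10 RPKM were left out of these differences. Their medians were 0.71 from 5 to 10 RPKM by the mean, and ran from -3.77 to 2.28 by the smaller value. Of the TIA genes, 10 were higher in leaf at 4-fold and 6 in root. With a pseudocount of 10 there were 12 and 7, since DXS1, GES, STR1, T16H and DAT on the leaf side and 10HGO and T19H on the root side fell short of 2-fold, as did the regulator ORCA2. None of the 37 named genes changed sign under the 3 scalings and 2 pseudocounts. No paired analysis was possible because each organ has 1 library, and no replicate could be left out for the same reason. The depth behind a value under 1 RPKM is unknown, which limits the ratios of T16H, T19H, DAT and ZCT2.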
